A study of Mus musculus with 3 samples.

Results

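The regions described here are the clusters of olfactory receptor genes on mouse chromosomes 2 and 9, taken as all 1 kb bins of chromosome 2 from 85200001 to 89800000 and of chromosome 9 from 37700001 to 39800000 (mm9, 1-based). This gives 6700 bins, 4600 on chromosome 2 and 2100 on chromosome 9, of which 5618 held a read in at least 1 library, out of 2285014 such bins in the genome. The study mapped histone modifications by chromatin immunoprecipitation and sequencing (ChIP-seq) in RAG2-/- Abelson-transformed pro-B cells, a mouse B-lineage line kept growing by the Abelson virus, of a strain that the labels give as C57BL/7. There was 1 library for each of 3 antibodies, with no replicate. The first antibody recognises histone H3 with arginine 2 symmetrically dimethylated (H3R2me2s), and the third recognises it with lysine 4 trimethylated (H3K4me3). The second was made against a tail that carries both modifications at once (H3R2me2sK4me3, the combined mark below). The antibodies against the arginine marks came from the study's own laboratory, and the H3K4me3 antibody was bought. All 3 libraries came from cells of the same genotype and line, grown in medium with 10% serum, and input chromatin was not analysed here. Genotype and cell type were not checked in the reads.

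Olfactory receptors are G protein-coupled receptors of the sensory neurons of the nose, and they form the largest gene family of the mouse. Their genes lie in tandem arrays that arose by repeated duplication, and each mature sensory neuron expresses 1 allele of 1 receptor while the rest of the family stays packed in heterochromatin. The receptors are made mainly in the olfactory epithelium. H3K4me3 marks the starts of active genes and of many CpG-rich genes that are poised, and H3R2me2s has been found at the same kind of site.

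In the gene order of RefSeq on GRCm38.p6, used for names and neighbours only, the longest run of receptor genes on chromosome 2 held 293 of the 377 receptor genes and pseudogenes of that chromosome, with 3 other protein-coding genes between them (Fads2b, Pramel7 and Pramel6). The longest run on chromosome 9 held 127 of 179, with Vwa5a, AW551984 and Tmem225 between them. A run was continued across up to 10 other genes. That build differs from the build of the reads, so no gene was placed on a bin. RefSeq start sequences, 250 bases before to 50 after the annotated start, were matched for 265 receptor genes of these runs, with 267 starts. Of these, 182 began at an ATG, so the model holds no leader and the true start is not known. The 85 starts that did not begin at an ATG had a median of 1 CpG, at most 8, and 94.1% of them had at most 3. Of 30674 such starts of all other genes, 28.0% had at most 3 CpG and the median was 8. AW551984, inside the chromosome 9 run, had 7, 6 and 2 CpG at its 3 annotated starts.

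Below are a receptor start of each run and, for contrast, the start of Ptprj, a receptor-type tyrosine phosphatase and the first protein-coding gene after the chromosome 2 run. The receptor starts were taken as those with the median number of CpG and the lowest receptor number. For Ptprj the rule was instead the annotated start with most CpG, so the contrast is partly picked. They are shown for their low CpG content, and the capitals mark each CpG. Olfr1030 and Olfr25 have 1 CpG each in 300 bases, with a GC content of 33.7% and 38.0%, and Ptprj has 42 with a GC content of 79.3%. A CpG count describes these letters and says nothing of the mark at the gene.

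Olfr1030: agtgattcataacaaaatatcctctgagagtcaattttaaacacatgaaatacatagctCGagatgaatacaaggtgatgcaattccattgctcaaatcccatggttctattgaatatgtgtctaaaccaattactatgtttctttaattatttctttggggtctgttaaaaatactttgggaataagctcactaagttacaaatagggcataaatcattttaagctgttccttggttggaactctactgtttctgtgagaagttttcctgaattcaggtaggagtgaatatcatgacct

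Olfr25: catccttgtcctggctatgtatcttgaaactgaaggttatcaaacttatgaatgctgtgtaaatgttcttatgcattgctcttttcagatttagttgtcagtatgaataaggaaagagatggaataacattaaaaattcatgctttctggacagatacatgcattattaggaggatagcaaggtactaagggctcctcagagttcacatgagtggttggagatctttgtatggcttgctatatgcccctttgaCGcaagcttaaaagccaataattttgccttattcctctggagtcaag

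Ptprj: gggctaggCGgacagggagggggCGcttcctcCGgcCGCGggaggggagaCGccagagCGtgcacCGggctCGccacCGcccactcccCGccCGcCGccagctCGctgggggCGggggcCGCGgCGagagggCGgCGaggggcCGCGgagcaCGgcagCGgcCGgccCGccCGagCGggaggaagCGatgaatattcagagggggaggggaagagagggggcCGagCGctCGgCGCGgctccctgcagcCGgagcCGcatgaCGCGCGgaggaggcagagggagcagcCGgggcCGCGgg

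The clusters held 8969 of the 6923765 reads of H3R2me2s, 7901 of the 7128852 reads of the combined mark, and 13409 of the 13898471 reads of H3K4me3. Reads in the clusters fell on both strands alike, with 49.0% to 50.3% on the forward strand. Repeats of a position and strand were 6.48% of cluster reads in the H3R2me2s library, 2.23% in the combined-mark library and 2.60% in the H3K4me3 library, beside 5.22%, 2.64% and 6.20% in the genome. No read fell in 1082 of the 6700 bins in any library. These were 16.7% of the chromosome 2 cluster and 14.9% of the chromosome 9 cluster, beside 8.04% and 6.91% of the other bins of these chromosomes. The longest empty stretch was 40 kb, at chromosome 2, 89046001 to 89086000. How the aligner treated repeated sequence was not given in the sources used here. Empty bins of duplicated genes therefore cannot be told apart from bins with no chromatin recovered. Levels below are per bin with a read. This does not correct bins where only part of the sequence can take a read. How much of each bin could take a read was not computed, and input was not analysed. Such a loss of reads cannot be told apart from a lower signal in the clusters at any level given below.

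The chromosome 2 cluster held none of the 3 marks at the level of a call. A bin was called at 15 reads or more in the H3R2me2s library, at 16 in that of the combined mark and at 25 in that of H3K4me3, each at least 4 times the library's mean. No bin of 3830 passed in any library, which allows a share of up to 0.0783% in each. Over the whole genome, calls take in 1.23% of bins (H3R2me2s), 1.45% (combined mark) and 2.45% (H3K4me3). In the other bins of chromosome 2 the shares were 1.39% (1.33 to 1.45), 1.62% (1.56 to 1.68) and 2.74% (2.66 to 2.82), where ranges in parentheses here and below are 95% intervals for counting error alone. The highest bins of the cluster stayed well under the limits. For H3R2me2s the highest were 10 reads, at 86071001 to 86072000 and at 86888001 to 86889000. For the combined mark the highest was 11 reads, at 89523001 to 89524000, where there were 5 reads of H3R2me2s and 1 of H3K4me3. For H3K4me3 it was 15 reads, at 89762001 to 89763000, with 4 reads of each of the other marks. The highest bins of the 3 libraries were thus different bins. Transcription and marks of silenced chromatin were not measured, so the data show the cluster only as free of these 3 marks at the limits used.

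The chromosome 9 cluster held 5 called bins in 2 places. Both were called for H3K4me3, and only the first for the arginine marks. Of its 1788 bins with a read, 2 were called for H3R2me2s, which is 0.112% (0.0135 to 0.403). For the combined mark 2 were called, with the same share and interval. For H3K4me3 it was 5, or 0.280% (0.0909 to 0.651). The other bins of chromosome 9 had 1.32%, 1.54% and 2.65%. Over both clusters together the shares were 0.0356% (0.00431 to 0.129) for each arginine library and 0.0890% (0.0289 to 0.208) for H3K4me3, against 1.36%, 1.59% and 2.7% of the 270885 other bins of both chromosomes. The intervals of the clusters and of the other bins did not overlap in any library.

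The first place, at chromosome 9, 38525001 to 38528000, lay 825 kb inside the cluster and carried all 3 marks. It held 113 H3R2me2s reads, 284 of the combined mark and 562 of H3K4me3 in 3 kb, which was 15.0, 48.3 and 60.6 times the chromosome's level far from calls (defined below). By bin from left to right there were 29, 77 and 7 H3R2me2s reads, 71, 200 and 13 combined-mark reads, and 130, 394 and 38 H3K4me3 reads. The middle bin was highest in every library, and the third bin passed the limit for H3K4me3 alone. Most of these reads had a position of their own, with 100, 267 and 472 distinct positions and strands. Scaled to all reads of each library, the ratio of H3R2me2s to H3K4me3 was 0.404 (0.327 to 0.495), where all called bins of chromosome 9 outside the cluster had 0.411. The ratio of the combined mark to H3K4me3 was 0.985 (0.851 to 1.14), above the 0.810 of those called bins. Those bins were called in any library, 2930 for H3K4me3 and 1707 for the combined mark, while this place was called in all 3. The sets are thus unlike, and the spread of the ratio over single called places was not computed. These 3 kb held 11.1% of all H3K4me3 reads of the 2.1 Mb cluster.

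The second place, at chromosome 9, 39785001 to 39787000, lay 13 kb from the end of the cluster and was called for H3K4me3 only. It held 27 H3R2me2s reads, 19 of the combined mark and 120 of H3K4me3, or 5.37, 4.84 and 19.4 times the level far from calls. Its H3R2me2s reads were 14 and 13 in the 2 bins, just under the limit of 15, so this mark was not shown to be absent. The ratio of the combined mark to H3K4me3 was 0.309 (0.180 to 0.503), and this interval does not reach that of the first place. The second place was picked through H3K4me3 alone, so low ratios to H3K4me3 there are partly fixed by the selection. The gap between the places is therefore no test of a difference. Background was not taken off these counts. The ratios of H3R2me2s to H3K4me3 were 0.452 (0.286 to 0.690) here and 0.404 there, with overlapping intervals. Which gene starts at either place was not determined, since no annotation of the reads' build was used.

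**Figure D1:**
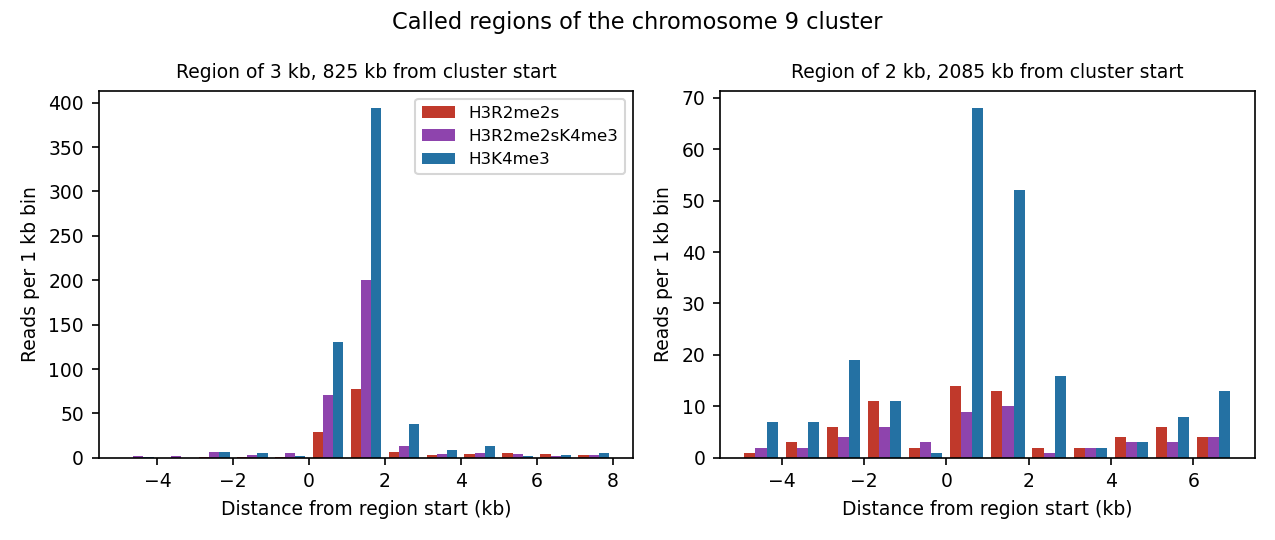
Reads per 1 kb bin (linear axis, bars for the 3 libraries) around both called places of the chromosome 9 cluster, against distance from the left end of each place in kb. In the left panel the middle bin reaches 77, 200 and 394 reads; in the right panel the 2 H3K4me3 bins stand at 68 and 52 reads while the other libraries stay at 14 or fewer.

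Both clusters also had fewer reads per bin than the rest of their chromosomes in every library, and H3K4me3 differed most. On chromosome 2 the mean H3R2me2s count was 1.47 reads per bin in the cluster and 3.36 in the other bins, a ratio of 0.436 (0.425 to 0.448). The combined mark had 1.27 and 3.46 reads, a ratio of 0.367 (0.357 to 0.378). H3K4me3 had 2.18 and 6.69 reads, a ratio of 0.326 (0.319 to 0.333). On chromosome 9 the ratios were less extreme, at 0.582 (0.563 to 0.603), 0.516 (0.497 to 0.535) and 0.443 (0.431 to 0.456). Over both clusters they were 0.483 (0.473 to 0.494), 0.415 (0.406 to 0.424) and 0.364 (0.357 to 0.370). The other bins include the called ones, whose share was highest for H3K4me3.

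Set against chromatin without calls, the order of the libraries turned round. Bins more than 5 kb from any called bin of any library are called far bins, and there were 142155 of them on chromosome 2 and 98327 on chromosome 9 outside the clusters. Against these the chromosome 2 cluster had 0.566 of the H3R2me2s level (0.551 to 0.581), 0.626 of the combined mark (0.609 to 0.644) and 0.677 of H3K4me3 (0.662 to 0.692). The far bins of the chromosome 9 cluster had 0.712 (0.687 to 0.737), 0.769 (0.740 to 0.799) and 0.777 (0.754 to 0.801). H3R2me2s was thus the library that stood furthest below other uncalled chromatin in both clusters. The intervals of the combined mark and H3K4me3 overlapped on chromosome 9. This order was not particular to the clusters. Other long stretches without a call (described below) had median levels of 0.690, 0.732 and 0.840 times far bins on chromosome 2. On chromosome 9 these medians were 0.701, 0.747 and 0.761. As CPM (each count scaled by the size of its library) per kb, the chromosome 2 cluster had 0.212 (H3R2me2s), 0.178 (combined mark) and 0.157 (H3K4me3), and far bins had 0.374, 0.285 and 0.232.

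Libraries were also compared with each other within the cluster. The CPM ratio of H3R2me2s to H3K4me3 was 1.35 (1.30 to 1.39) in the chromosome 2 cluster, 1.61 in far bins of that chromosome and 0.424 in its called bins. The cluster's ratio was therefore 0.836 of that of far bins (0.808 to 0.865), and on chromosome 9, over far bins of the cluster, 0.916 (0.875 to 0.960). For the combined mark over H3K4me3 these values were 0.925 (0.893 to 0.958) and 0.990 (0.943 to 1.04), so that on chromosome 9 this ratio did not differ from far bins beyond counting error. By 100 kb window, the H3R2me2s to H3K4me3 ratio lay below that of far bins in 41 of 46 windows of chromosome 2 and 15 of 21 of chromosome 9. The same was seen in 611 of 999 other windows without a call on chromosome 2 and 416 of 688 on chromosome 9.

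The lower level was seen in the middle and at the upper end of the distribution of bins on both chromosomes, and at the lower end on chromosome 2. With the reads of the 3 libraries summed, the median bin of the chromosome 2 cluster held 4 reads, where far bins held 7. The 90th percentile was 9 against 14 and the 99th was 14 against 24. At the 10th percentile it was 1 read against 3, and this ratio of 0.333 was the lowest of the 4 percentiles; the others stood at 0.571 to 0.643. In the chromosome 9 cluster the median, 90th and 99th percentiles were 5, 11 and 19.1 reads, against 7, 14 and 24, or 0.714 to 0.797 of far bins. The 10th percentile was 2 reads in the chromosome 9 cluster and 2 in far bins.

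**Figure D2:**
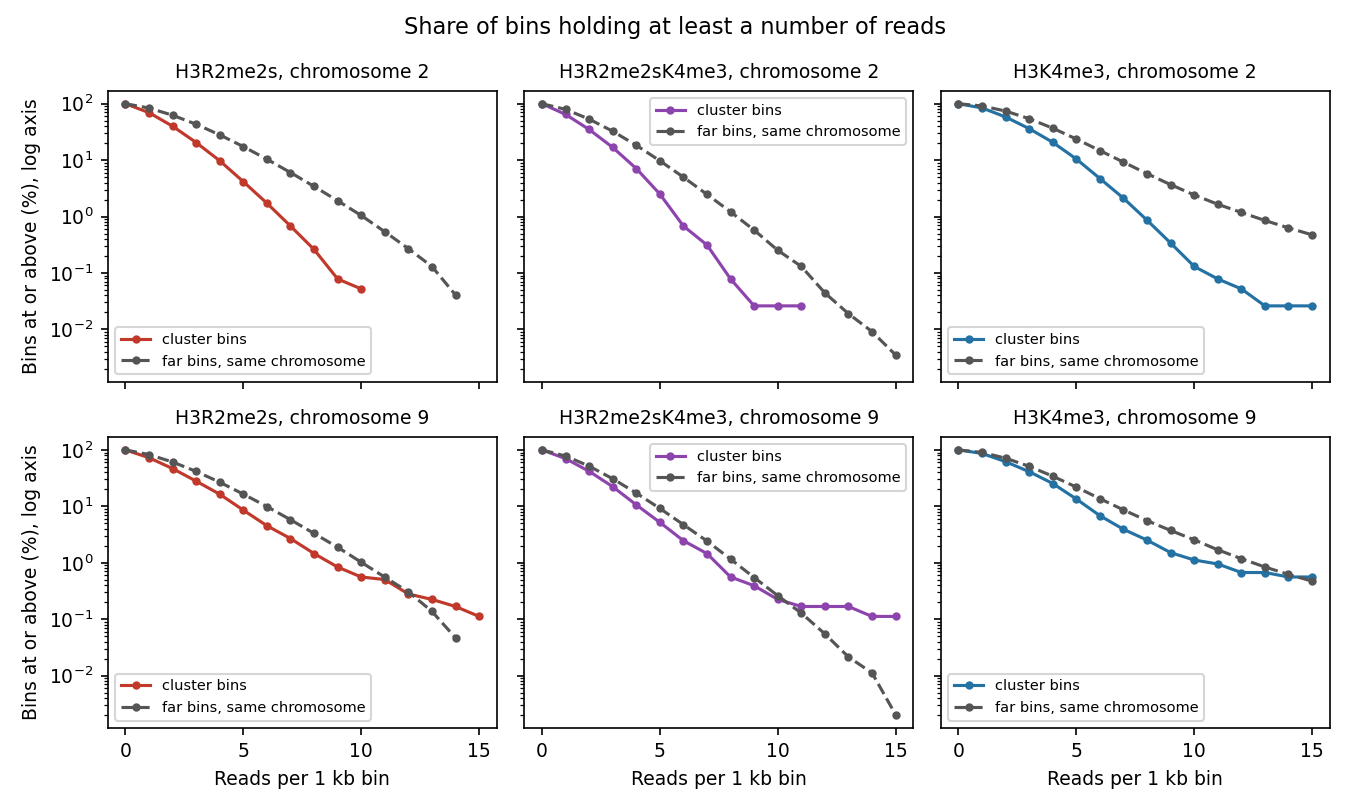
Percent of bins (log axis) that held at least the number of reads on the x axis, for cluster bins (solid) and for far bins of the same chromosome, more than 5 kb from any called bin (dashed), by library and chromosome. The chromosome 2 cluster lies below the far bins from 1 read upward and ends at 10, 11 and 15 reads; on chromosome 9 the curve flattens at its right end, where the called bins are.

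Along the chromosome 2 cluster the level stayed low throughout. In the 46 windows of 100 kb of chromosome 2 the lowest, median and highest H3R2me2s levels were 0.661, 1.45 and 2.08 reads per bin with a read. For the combined mark they were 0.829, 1.25 and 1.96, and for H3K4me3 1.08, 2.20 and 2.92. All 46 windows lay below the mean of far bins in each library. The window with the lowest level was 86400001 to 86500000 for H3R2me2s and H3K4me3, with 41 and 67 reads in 62 bins, and 87100001 to 87200000 for the combined mark, with 63 reads in 76 bins. The highest was 85300001 to 85400000 for both arginine marks, with 185 and 174 reads, near the left edge, and 86000001 to 86100000 for H3K4me3, with 260 reads.

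The chromosome 2 cluster lay within a stretch of 5316 kb without a called bin of any library, from 84998001 to 90314000. This was the longest such stretch of chromosome 2 and the 15th in the genome by length, of 1016 stretches of at least 500 kb. Ranked by bins with a read, of which it had 4287, it was also first on chromosome 2, and 17th in the genome. To its left, the window from 84900001 to 85000000, which holds the edge, stood at 1.12, 1.05 and 0.985 times far bins for H3R2me2s, the combined mark and H3K4me3, and the one before it, from 84800001 to 84900000, at 3.24, 5.46 and 7.55 times. To its right, the window from 90300001 to 90400000 stood at 2.32, 2.38 and 3.06 times. Just outside the cluster, the window from 90000001 to 90100000 had a read in 10 of its bins only.

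Other long uncalled stretches of chromosome 2 came close to the level of the receptor cluster. Of 26 other stretches with at least 1000 covered bins, 1 was lower than the 1.53 H3R2me2s reads per bin of the stretch with the cluster, 2 were lower for the combined mark (1.33 reads) and 1 for H3K4me3 (2.21 reads). Over those 26 stretches the H3R2me2s level ran from 0.570 to 1.32 times far bins with a median of 0.690, and the stretch with the cluster stood at 0.592. For H3K4me3 the median was 0.840 and the stretch with the cluster stood at 0.687, next to the lowest of 0.686. The level of the stretch with the cluster was therefore near the bottom of the range of long uncalled stretches on its chromosome but not outside it. That stretch also takes in bins outside the cluster. The cluster alone had 1.47 H3R2me2s and 2.18 H3K4me3 reads per bin, just below the lowest other stretches at 1.48 and 2.21. For the combined mark it had 1.27 reads, above the lowest of 1.15. The ends of the cluster were not set by calls, so this second comparison is of unlike pieces.

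The chromosome 9 cluster was interrupted by the called places and differed in its last part. It held 2 uncalled stretches, from 37466001 to 38525000 and from 38528001 to 39785000, of which the first began outside the cluster. They ranked 28th and 19th on chromosome 9 by bins with a read. The second, which takes in most of the last 0.4 Mb, was the one with at least 1000 covered bins, and by the comparison made on chromosome 2 it stood in the upper part of the range. It had 1.97, 1.68 and 2.67 reads per bin of H3R2me2s, the combined mark and H3K4me3, above the medians of 1.76, 1.46 and 2.35 over 20 other such stretches of chromosome 9. Of those 20, 15, 16 and 17 were lower. Against far bins it stood at 0.783, 0.858 and 0.863, and the first stretch at 0.642, 0.682 and 0.693. The lowest, median and highest windows had 1.17, 1.59 and 3.72 reads per bin of H3R2me2s, 1.03, 1.28 and 5.19 of the combined mark, and 1.87, 2.11 and 8.94 of H3K4me3. The highest window of the combined mark and of H3K4me3, from 38500001 to 38600000, was the one with the first called place. For H3R2me2s the highest was the last window, from 39700001 to 39800000, with the second.

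From 39400001 to the end the level was slightly above that of far bins in every library. There the bins more than 5 kb from a call had an H3R2me2s level 1.09 times that of far bins (1.02 to 1.16). The combined mark stood at 1.16 times (1.08 to 1.25), and H3K4me3 at 1.12 times (1.06 to 1.18). In the 17 windows before, they stood at 0.619 (0.593 to 0.646), 0.671 (0.641 to 0.702) and 0.692 (0.667 to 0.717). For the combined mark and H3K4me3 these intervals overlap those of the chromosome 2 cluster, while H3R2me2s lay above its chromosome 2 interval. Empty bins made up 16.2% of the first piece and 9.25% of the last. The pieces were divided after the rise was seen, so the difference is a description.

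**Figure D3:**
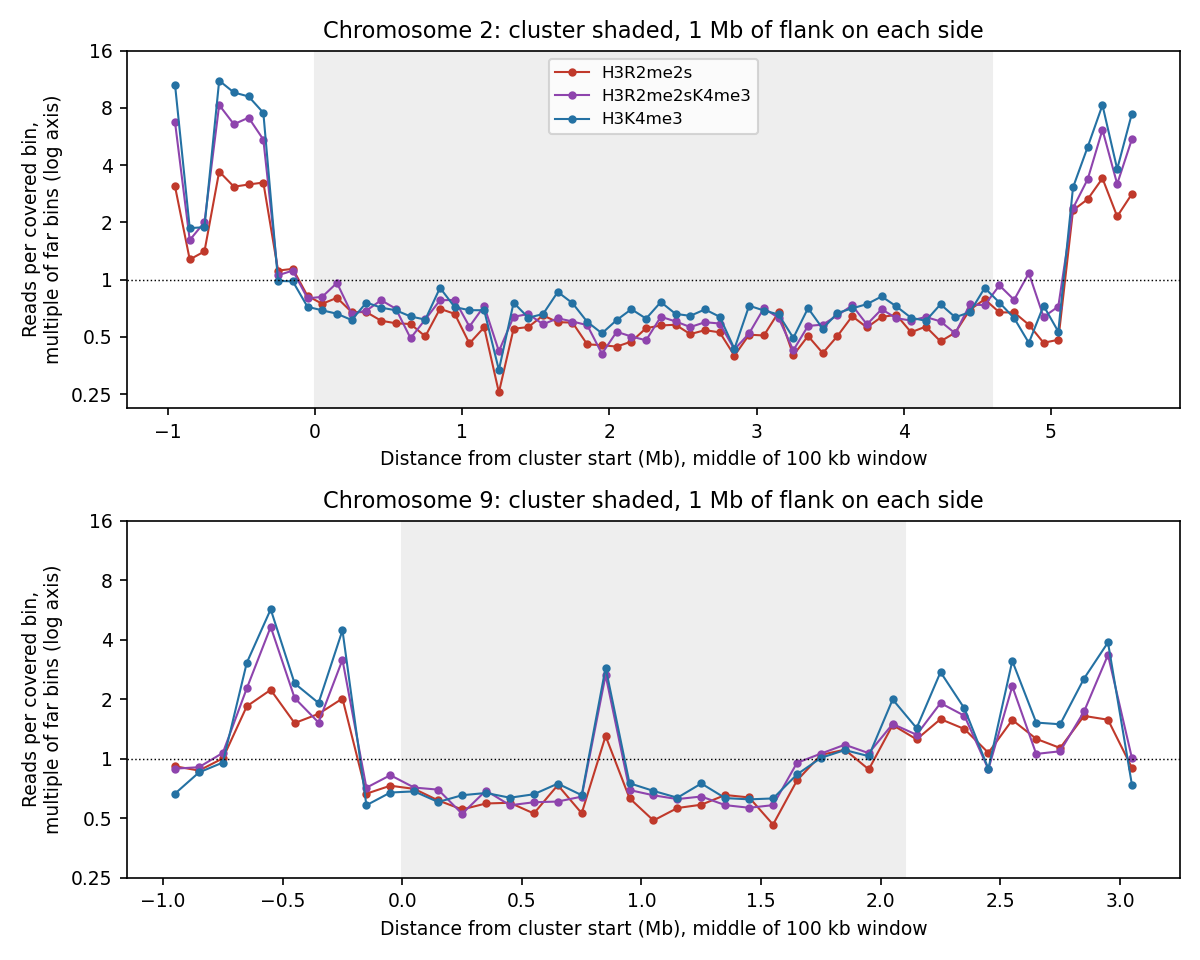
Reads per bin with a read in 100 kb windows, as a multiple of the far bins of the same chromosome (log axis, dotted line at 1), against distance from the cluster start in Mb, for the 3 libraries. The shaded clusters lie below 1 in all 46 windows of chromosome 2; on chromosome 9 the window with the first called place stands at 1.30, 2.65 and 2.89, and the 4 windows of the last 0.4 Mb stand between 0.883 and 2.00, the highest being the last, which holds the second called place.

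Between libraries, reads per bin were only weakly related in the chromosome 2 cluster. Pearson's r across its 3830 bins was 0.179 between H3R2me2s and the combined mark, 0.179 between H3R2me2s and H3K4me3, and 0.185 between the combined mark and H3K4me3. Across the 160146 other bins of the chromosome r was 0.860, 0.682 and 0.907. A region at chromosome 2, 101481001 to 101485000, holds many reads of both arginine antibodies and few of H3K4me3, and without its bins the values were 0.895, 0.883 and 0.959. Across far bins r was 0.297, 0.323 and 0.323, so that most of the gap between the cluster and the other bins was also present between far bins and the other bins. These bins share a library, its depth and the genome's base composition, and they are not replicates.

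In the chromosome 9 cluster the relation rested on the called bins. Over all 1788 bins r was 0.736, 0.751 and 0.941 in the same order of pairs. Without the 5 called bins it was 0.239, 0.281 and 0.254. Over the cluster's bins more than 5 kb from a call it was 0.230, 0.266 and 0.238. The far bins of chromosome 9 had 0.305, 0.340 and 0.340, and all its other bins 0.883, 0.877 and 0.960. Over both clusters together r was 0.577, 0.595 and 0.870 with the called bins, and 0.210, 0.225 and 0.216 without them.

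**Figure D4:**
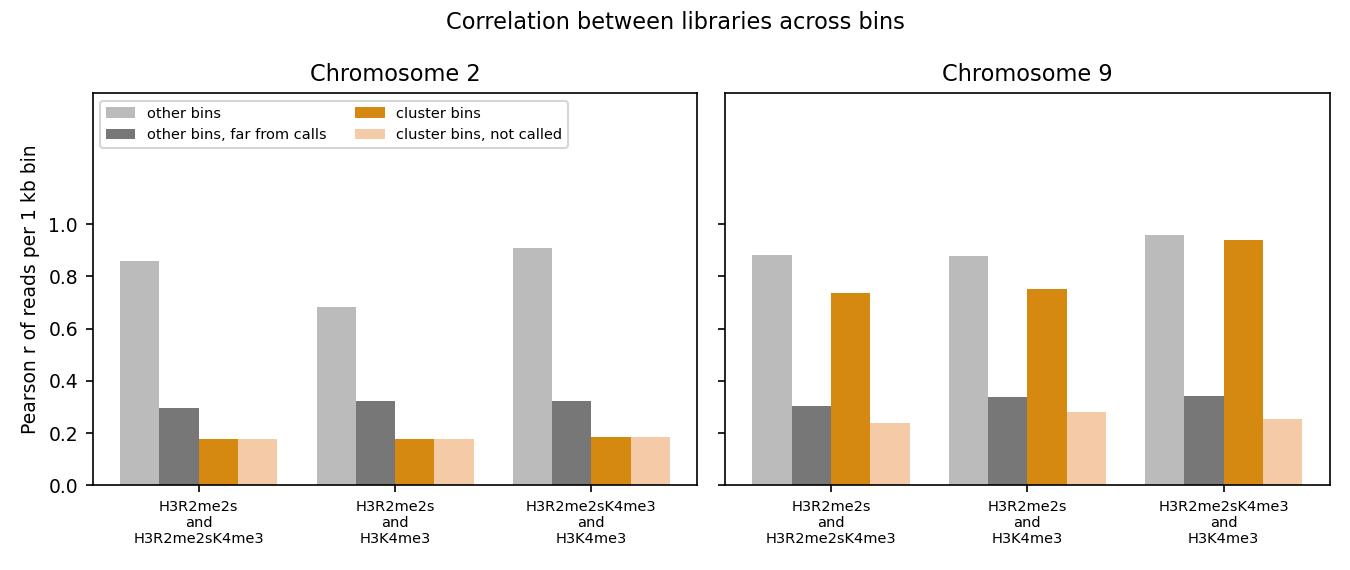
Pearson's r of reads per 1 kb bin for the 3 pairs of libraries, in other bins of the chromosome, in other bins more than 5 kb from any called bin, in cluster bins, and in cluster bins without the called ones. On chromosome 2 both cluster bars stand at 0.179 to 0.185; on chromosome 9 leaving out 5 called bins lowers them from 0.736, 0.751 and 0.941 to 0.239, 0.281 and 0.254.

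Low counts by themselves limit r, so random separate parts of 3461882 reads were drawn from each library to compare libraries with themselves at equal depth. In the chromosome 2 cluster, separate parts of 1 library had an r of 0.196 (H3R2me2s), 0.153 (combined mark) and 0.127 (H3K4me3). Parts of different libraries had 0.102, 0.114 and 0.0944. In far bins the values were 0.306, 0.231 and 0.205 within a library and 0.189, 0.169 and 0.160 between libraries. The cluster bins therefore told little even about a second part of the same library.

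A measure that does not depend on depth is the covariance of 2 libraries over bins divided by the product of their means, which is 0 when they share no variation. In the chromosome 2 cluster it was 0.189 between H3R2me2s and the combined mark, 0.145 between H3R2me2s and H3K4me3, and 0.156 between the combined mark and H3K4me3. The far bins had 0.227, 0.219 and 0.230. In the bins of the chromosome 9 cluster more than 5 kb from a call it was 0.234, 0.221 and 0.197, where far bins had 0.246, 0.248 and 0.260. The values were thus below those of far bins for all 3 pairs in both clusters, by little for the first pair on chromosome 9. Within a library, with the variance of counting removed, the value for H3K4me3 was 0.190 in the chromosome 2 cluster and 0.321 in far bins. For H3R2me2s it was 0.327 and 0.344, and for the combined mark 0.316 and 0.308. In the bins of the chromosome 9 cluster more than 5 kb from a call the value of H3R2me2s was 0.466 and that of far bins 0.370. The combined mark had 0.351 and 0.337, and H3K4me3 0.257 and 0.367. Within a library, the value for H3K4me3 was thus lower than in far bins on both chromosomes. For the combined mark it was slightly above far bins on both. For H3R2me2s it was below far bins on chromosome 2 and above them on chromosome 9. No interval was computed for these values. The chromosome 9 cluster also joins 2 pieces of unlike level, and how much this adds to its values was not tested. Reads that repeat a position add to the value within a library.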

How the data were processed

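Per the labels' protocols, sonicated nuclei were immunoprecipitated, libraries were amplified with 15 PCR cycles and fragments of 100 to 500 bp were taken for the Genome Analyzer. Reads were placed on mm9, per the submitters' processing notes. Which aligner was used, what it did with reads that match several places, and whether repeats were removed is not given in the sources used here. Each line of a deposited file is a single placed read, 39 bases wide, with the value 1. The authors deposited reads, not scaled signal, so that a sum of lines is a raw count.

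The 5-prime base of each read was moved 75 bp in the 3-prime direction and counted in 1 kb bins. Limits of 15, 16 and 25 reads are those of the bin rule, and equal the larger of 4 times the mean per covered bin and the smallest count with a Poisson tail under 1e-06. Called bins with at most 1 kb between them form a place. Far bins lie more than 5 kb from any called bin. Shares have exact 95% Clopper-Pearson intervals, ratios of reads exact binomial ones, and ratios of ratios normal ones on the log scale. A count of 0 was bounded with 3 bins. All intervals cover counting error only, because PCR copies cannot be told from separate molecules and bins differ beyond counting. A single library per antibody allows no p-value between antibodies and no check against replicates. Ratios and calls were run on simulated Poisson counts, and the covariance measure on counts with a set shared variation. Over both chromosomes, uncalled cluster bins and far bins had a variance of 1.46 to 2.08 times the mean. The simulation therefore checked the computation and could not show that the intervals or calls hold for these data. Other read shifts, bin sizes, limits, depths and sets of bins were tried. Named were all called places, the highest uncalled bin of each library and cluster, and the 100 kb windows with the highest and lowest level. The regions, limits and measures were chosen with earlier results of these data known. Python 3.11.15, numpy 2.4.6, scipy 1.17.1, pandas 2.3.3 and matplotlib 3.10.9 were used.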

Additional observations from a re-analysis of the deposited data

How the results depend on the processing

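Of 75 values recomputed under other settings, 38 stayed within the interval of the reported value and 37 did not. All 24 recomputed density ratios stayed below 1. Shares and r were recomputed for the clusters and not as a comparison with the other bins, so no direction can be given for them. For r the interval used was that of Fisher's z over bins, which treats bins as independent and is narrow. Values are in the order H3R2me2s, combined mark and H3K4me3, or for r H3R2me2s with the combined mark, H3R2me2s with H3K4me3, and the combined mark with H3K4me3, over both clusters. The density relative to the other bins was 0.457, 0.392 and 0.344 with bins of 2 kb, 0.439, 0.376 and 0.330 over every bin from the first read, and 0.624, 0.702 and 0.753 against far bins. It was 0.613, 0.672 and 0.710 with far bins on both sides, and 0.458, 0.396 and 0.348 without the last 0.4 Mb of chromosome 9. These 2 settings were chosen after seeing the data, as was leaving out the region at 101481001 on chromosome 2. With 1 read per position and strand, H3K4me3 had 0.378. The share of called bins moved at halved limits only, to 0.641%, 0.231% and 0.231%, where the limits of 8, 8 and 13 reads pass more bins by construction. The shares of the other bins at these limits were not computed. Between 0.0178% and 0.131% of bins were called under the other settings. For r, leaving out called bins gave 0.210, 0.225 and 0.216, Spearman's rho was 0.181, 0.184 and 0.200, bins of 10 kb gave 0.728, 0.701 and 0.920, and bins of 2 kb 0.620, 0.627 and 0.885. At equal depth r was 0.570 for H3R2me2s with H3K4me3 and 0.847 for the combined mark with H3K4me3. With 1 read per position the latter was 0.853. With reads not moved, H3R2me2s with H3K4me3 had 0.615. Without the last 0.4 Mb, H3R2me2s with the combined mark had 0.599 and the combined mark with H3K4me3 0.890. Apart from halved limits, whose construction shows it, the cause was not tested. No paired analysis was possible because there were no replicates to pair; for the same reason none was left out. At 1.27 to 2.83 reads per bin, marks below several times background were not detectable in single bins.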
